A study of Mus musculus with 6 samples.

Results

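The radial glia identity genes are 10 genes that mark the progenitor cells of the embryonic cortex: Sox1, Sox2, Sox9, Nes, Vim, Fabp7, Slc1a3, Prom1, Ednrb and Glul. They were picked by name, and every non-control probe whose transcript accession maps to 1 of these symbols was taken. All 10 of them were on the array, among 20145 genes with a symbol, with 13 of its 55681 probes, and all 13 probes were well above background on all 6 arrays. Sox1, Prom1 and Ednrb had 2 probes each, and the other members had 1. RNA was measured on 1-colour arrays in cortical cells of C57BL/6N mouse embryos. The control group is 3 arrays from embryos whose dams were injected with saline. The phenobarbital group is 3 arrays from embryos whose dams received 80 mg/kg phenobarbital, a sedative that strengthens signalling through GABA-A receptors, in injections 6 h apart on embryonic days 10 to 11. In both groups the cortex, labelled E12.5 and described as embryonic day 12 in the protocol, was dissociated and plated, and RNA was taken 4 h after plating. The cells are labelled as neural progenitor cells, but the protocol describes no sorting step. The labels do not say whether replicates came from separate litters, so p-values here reflect only how far these samples scatter, and that scatter could be technical.

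Radial glia are the dividing cells that line the ventricle of the developing cortex and span its wall. They arise from neuroepithelial cells, give rise to neurons directly or through intermediate progenitors, and later make glia. SoxB1 factors such as Sox1 and Sox2 hold cells in the progenitor state, and Sox9 acts in stem cell maintenance and in the later turn to glial fates. Nestin and vimentin form the intermediate filaments of the radial fibre. The lipid-binding protein encoded by Fabp7, the glutamate transporter GLAST (Slc1a3) and glutamine synthetase (Glul) are shared by radial glia and astrocytes. Prom1 encodes prominin-1, a glycoprotein of apical membrane protrusions, and Ednrb the endothelin receptor type B.

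The changes that the results turn on were read from probes of Prom1, Ednrb and Vim, so the sequence before the start sites of these genes is shown. The windows are RefSeq sequence of build GRCm38.p6, each the 250 bases before an annotated start, 5′ to 3′ on the gene's strand. Such a window was given for 9 of the 10 members, with 2 starts for Prom1 that lie 6968 bases apart. Prom1 is the 1 member whose probes carry different transcript accessions. Probe sequences were not given, so the probes could not be placed on their transcripts. Prom1 lies on the minus strand at chr5:44101737-44101986 for the first start and at chr5:44094769-44095018 for the second, Ednrb on the minus strand at chr14:103843702-103843951, and Vim on the plus strand at chr2:13574061-13574310. Capitals mark matches to the motifs described next.
Prom1, first start: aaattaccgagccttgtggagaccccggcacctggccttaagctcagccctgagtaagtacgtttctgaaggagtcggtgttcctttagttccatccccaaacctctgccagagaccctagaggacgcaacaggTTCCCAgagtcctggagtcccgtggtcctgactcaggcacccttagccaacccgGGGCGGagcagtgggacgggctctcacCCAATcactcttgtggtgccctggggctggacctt
Prom1, second start: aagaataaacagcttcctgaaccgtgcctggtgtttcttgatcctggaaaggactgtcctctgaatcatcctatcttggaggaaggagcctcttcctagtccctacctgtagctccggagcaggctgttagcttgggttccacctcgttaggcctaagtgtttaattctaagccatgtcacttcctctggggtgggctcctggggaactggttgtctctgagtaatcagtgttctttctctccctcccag
Ednrb: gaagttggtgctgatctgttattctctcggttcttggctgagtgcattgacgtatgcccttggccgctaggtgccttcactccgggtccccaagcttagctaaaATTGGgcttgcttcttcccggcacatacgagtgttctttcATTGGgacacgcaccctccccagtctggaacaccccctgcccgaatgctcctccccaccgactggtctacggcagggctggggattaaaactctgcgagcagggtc
Vim: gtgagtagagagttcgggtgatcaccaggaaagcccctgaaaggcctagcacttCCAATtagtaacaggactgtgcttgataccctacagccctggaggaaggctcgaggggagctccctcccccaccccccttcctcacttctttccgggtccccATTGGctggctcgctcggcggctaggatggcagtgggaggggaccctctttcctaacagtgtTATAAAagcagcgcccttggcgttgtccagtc

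The letters searched, on both strands, were ATTGTT (a core of SOX factor sites), TGGGAA (the core bound by the Notch effector RBPJ), GGGCGG (GC box), the CCAAT box, searched as the letters of its name, and TATAAA, the core promoter motif called the TATA box, and none of these matches overlapped in the windows shown. The first Prom1 start had an RBPJ core, a GC box and a CCAAT box, beginning 116, 62 and 35 bases before the start. The second Prom1 start had no match to any of the 5. The Ednrb window held 2 CCAAT matches, and the Vim window held 2 CCAAT matches and a TATA box that began 32 bases before the start. Over the 10 windows of members, the CCAAT letters were found in 8, the GC box in 6, and the RBPJ core and the TATA box in 2 each. Of all 32851 windows of this length, 33.8%, 32.7%, 21.6% and 12.4% held these letters. The SOX core was in none of the member windows and in 9.42% of all windows. These are matches of letters, not binding sites.

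Between 62.8% and 68.7% of spots were well above background on each array. The 75th percentile of the signal, to which every array was scaled, was 1116 to 1291 on control arrays and 1803 to 1862 on phenobarbital arrays. All values below are log2 signals relative to that percentile unless a signal is named, so a value of 2 lies 2 log2 units above it. All 3 phenobarbital arrays and control replicate 1 shared a slide, and control replicates 2 and 3 were on slides of their own. Pearson's r across genes, which are not replicates, was lowest for control replicate 2 among the controls, at 0.988 and 0.983 with the other two. The cortical genes Emx1, Emx2, Pax6, Lhx2 and Nr2e1 all passed the filter on dim probes. Genes of other cells were present too: all 10 listed genes of mesenchyme and meninges, all 10 of endothelium, all 11 of neurons and intermediate progenitors and all 7 of red blood cells passed the filter.

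**Figure D1:**
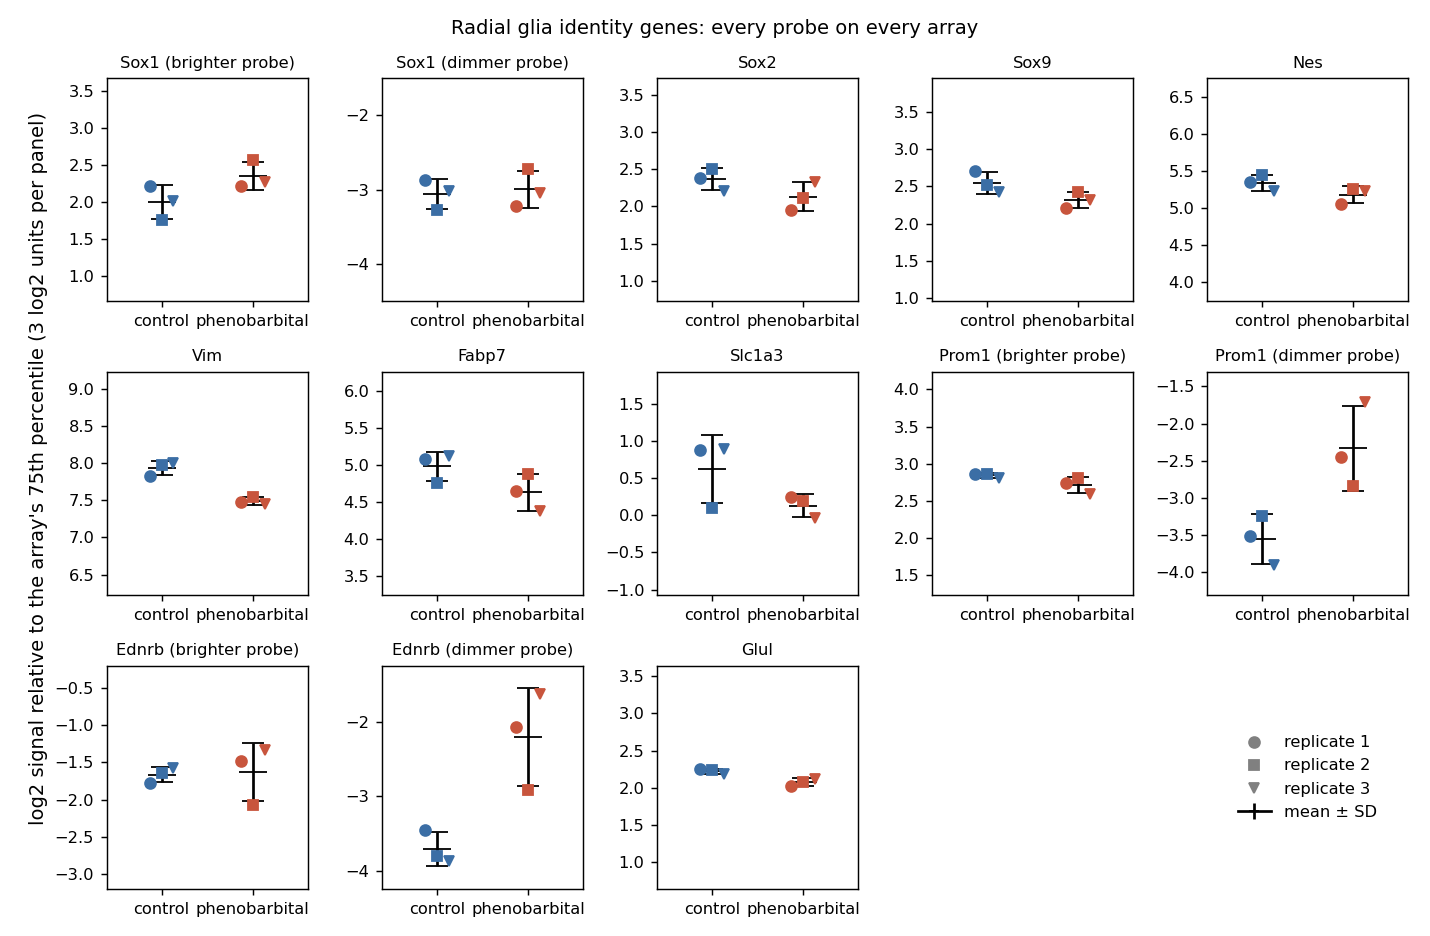
Log2 signal relative to the array's 75th percentile for each of the 13 probes, with 1 point per array, the replicate number as the symbol, and the mean ± SD of 3 arrays in black. Every panel spans 3 log2 units, so the dimmer probes of Ednrb and Prom1 stand out as those with the widest gap between groups, and Vim and Glul have tight groups that do not meet.

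With 1 probe per gene, the brightest, Vim fell and none of the 10 members rose; the other 9 did not pass (limma, adjusted p below 0.05). In the same comparison 17.3% of all 25303 names changed, 6.24% rising and 11% falling. With only 10 members, 1 call cannot be told apart from these shares. At an unadjusted p below 0.05 the members had 1, Vim, against 36.1% of all names in limma. Of the 10, 8 had a log2 fold change below 0, as did 68.4% of all names, and 2 had one above 0, as did 31.6%. The groups did not overlap for 3 of the 10, against 44.5% of all names. Sox1 was higher in this sense, against 11.6% of all names, and Vim and Glul were lower, against 32.9%. The members' median log2 fold change was -0.19, against -0.17 for all names tested. When every probe was tested, the dimmer probes of Ednrb and Prom1 rose, Vim fell, and 10 of the 13 probes did not pass, with 16.2% of all 34672 probes called (6.97% rising, 9.24% falling). The groups did not overlap for 5 of the 13 probes, 3 higher and 2 lower, against 44% of all probes, 13.4% higher and 30.6% lower.

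The 3 Sox genes did not pass, and they did not point one way. Sox1, a SoxB1 factor of neuroepithelium, read 2.22, 1.76 and 2.02 on its brighter probe in control replicates 1 to 3 and 2.22, 2.57 and 2.27 with phenobarbital. The groups did not overlap, but only just, since control replicate 1 and phenobarbital replicate 1 differed by 0.0016. Its log2 fold change was 0.35 ± 0.16 (SE, n = 3 per group; limma, adjusted p = 0.166). The dimmer Sox1 probe, labelled with the same transcript, read -2.87, -3.28 and -3.03 in controls and -3.22, -2.73 and -3.04 with phenobarbital. These groups overlapped, with a log2 fold change of 0.06 ± 0.17 (limma, adjusted p = 0.832). Control replicate 2 was the lowest array for both Sox1 probes and phenobarbital replicate 2 the highest.

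Sox2, the SoxB1 factor most widely used as a neural stem cell marker, went the other way in its point value. It read 2.39, 2.50 and 2.21 in controls and 1.95, 2.12 and 2.33 with phenobarbital. The groups overlapped, because phenobarbital replicate 3 lay above control replicate 3, and the log2 fold change was -0.24 ± 0.14 (limma, adjusted p = 0.272). The Sox9 probe was printed at 10 spots on each array, which shows the error within an array. The SD of the log2 signal among these spots was 0.03 to 0.08 within an array, while the SD between arrays of a group was 0.14 for controls and 0.11 with phenobarbital. Sox9 read 2.70, 2.52 and 2.42 in controls and 2.21, 2.43 and 2.32 with phenobarbital. Only phenobarbital replicate 2 reached the control values, and the log2 fold change was -0.23 ± 0.12 (limma, adjusted p = 0.216, 95% interval -0.52 to 0.06).

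Of the filament genes, Vim fell and Nes did not pass. Nes, which encodes the progenitor filament protein nestin, read 5.35, 5.44 and 5.23 in controls and 5.05, 5.26 and 5.23 with phenobarbital. The groups overlapped and the log2 fold change was -0.16 ± 0.11 (limma, adjusted p = 0.353). Vim, the vimentin gene, read 7.83, 7.98 and 8.00 in controls and 7.47, 7.55 and 7.45 with phenobarbital. All phenobarbital arrays lay below all controls, and Vim fell by 0.44 ± 0.10 (SE, n = 3 per group; limma, adjusted p = 0.0341, 95% interval -0.68 to -0.20). In bulk RNA, fewer cells that express Vim and less Vim RNA per cell cannot be told apart.

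The fall of Vim depends on how the arrays were scaled. Its unscaled signals were 293676, 281134 and 306889 in controls and 329524, 348564 and 315584 with phenobarbital, and the 75th percentile they were divided by was higher on the phenobarbital arrays too. Vim sat at the 99.4th percentile of brightness among tested probes, and no spot of the 6 arrays was saturated. After quantile normalization, which forces the arrays to 1 distribution, its log2 fold change turned to 0.05 (limma, adjusted p = 0.718). It stayed below 0 but did not pass with scaling to the median (-0.40, limma adjusted p = 0.0982) or to the percentile over detected probes (-0.35, limma adjusted p = 0.0698). Within slide 1, the 3 phenobarbital arrays lay 0.28 to 0.38 below control replicate 1, while control replicates 2 and 3 lay 0.15 and 0.17 above it. With the slide as a fixed block, where control replicate 1 alone carries the contrast, the log2 fold change was -0.34 (limma, adjusted p = 0.268). When each array was left out in turn, Vim passed only without control replicate 2 (-0.42, limma adjusted p = 0.0488), and its values lay between -0.50 and -0.41.

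**Figure D2:**
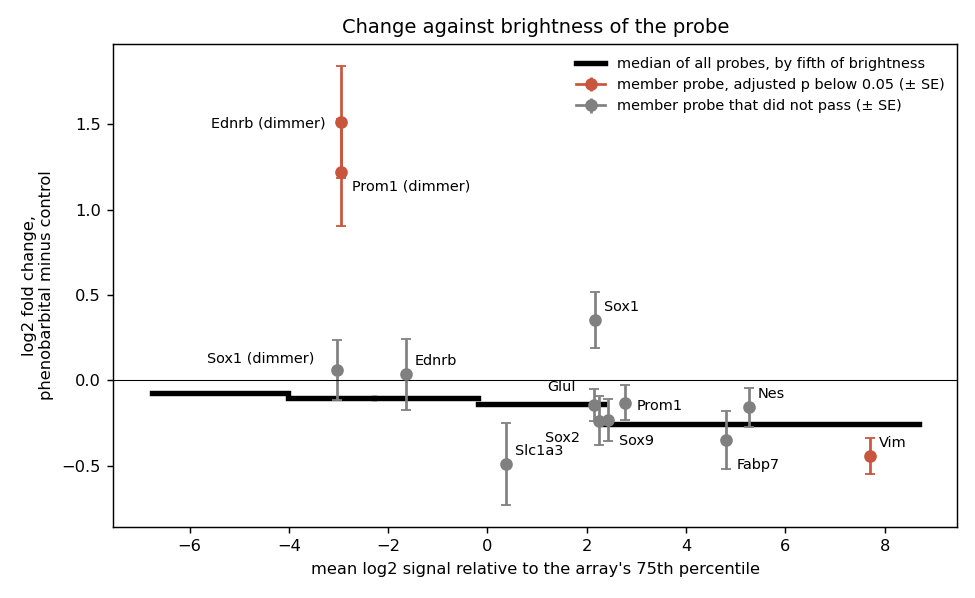
Log2 fold change (phenobarbital minus control, ± SE) against the mean log2 signal of the 13 probes, with black bars for the median of all tested probes in each of 5 equal classes of brightness. The bars step down from -0.07 in the dimmest class to -0.25 in the brightest; Vim lies below its bar, and the dimmer probes of Ednrb and Prom1 lie far above theirs.

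With all tested probes in 5 equal classes of brightness, the brightest class had a median log2 fold change of -0.25 and 16.2% of its probes fell, against -0.07 and 6.09% in the dimmest class. Vim, Nes, Fabp7, Sox9 and the brighter Prom1 probe belong to the brightest class. The dimmer probes of Ednrb, Prom1 and Sox1 belong to class 2, the next to dimmest, where the median was -0.10 and 7.38% of probes rose.

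Genes of lipid and glutamate handling had negative point values and did not pass. Fabp7, the brain lipid-binding protein gene, read 5.07, 4.76 and 5.11 in controls and 4.64, 4.88 and 4.38 with phenobarbital, a log2 fold change of -0.35 ± 0.17 (limma, adjusted p = 0.187). Its groups overlapped through control replicate 2, the low array of the controls. The same array was low for Slc1a3, which clears glutamate as GLAST. Slc1a3 read 0.88, 0.09 and 0.89 in controls and 0.24, 0.19 and -0.04 with phenobarbital. Control replicate 2 thus fell among the phenobarbital arrays while the other 2 controls lay above all of them. The log2 fold change of Slc1a3 was -0.49 ± 0.24 (limma, adjusted p = 0.187), and without control replicate 2 it was -0.75 and passed (limma, adjusted p = 0.0186). Glul, the glutamine synthetase gene, had the smallest standard error of the 10. It read 2.25, 2.23 and 2.18 in controls and 2.02, 2.08 and 2.12 with phenobarbital, with no overlap of the groups, but the log2 fold change of -0.14 ± 0.09 did not pass (limma, adjusted p = 0.304) and lay close to the median of all names.

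The membrane proteins Prom1 and Ednrb gave a different answer on each of their probes. The brighter Prom1 probe read 2.86, 2.87 and 2.81 in controls and 2.74, 2.81 and 2.60 with phenobarbital, and the groups met at the edge. Its log2 fold change was -0.13 ± 0.10 (limma, adjusted p = 0.398). The dimmer Prom1 probe, labelled with another transcript, read -3.51, -3.24 and -3.90 in controls and -2.45, -2.84 and -1.71 with phenobarbital. In signal, these were 113, 118 and 80.2 against 340, 260 and 550, and every phenobarbital array lay above every control. This probe rose by 1.22 ± 0.31 (SE, n = 3 per group; limma, adjusted p = 0.0471), which is 2.33-fold with a 95% interval of 1.38 to 3.93.

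Ednrb showed the same split although both its probes were labelled with 1 transcript. The brighter probe read -1.78, -1.64 and -1.58 in controls and -1.49, -2.08 and -1.33 with phenobarbital, so that phenobarbital replicate 2 lay below the controls and the other two above them. Its log2 fold change was 0.03 ± 0.21 (limma, adjusted p = 0.921). The dimmer probe read -3.45, -3.80 and -3.88 in controls and -2.07, -2.91 and -1.62 with phenobarbital, or 118, 80.2 and 81.9 against 443, 248 and 588 in signal. The groups did not overlap, and the probe rose by 1.51 ± 0.33 (limma, adjusted p = 0.0320), 2.85-fold with a 95% interval of 1.65 to 4.94. Phenobarbital replicate 3 was the highest and replicate 2 the lowest of its group on both Ednrb probes and on the dimmer Prom1 probe.

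**Figure D3:**
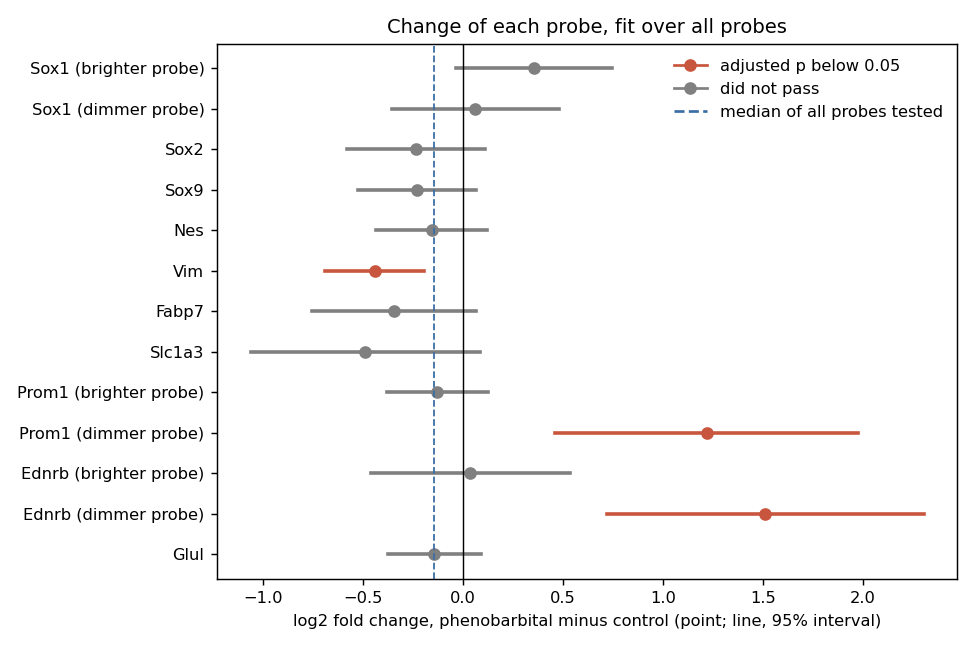
Log2 fold change (phenobarbital minus control) of each of the 13 probes with its 95% interval, from the fit over all probes; red marks an adjusted p below 0.05 and the dashed line is the median of all probes tested, -0.15. The intervals of Vim and of the dimmer Prom1 and Ednrb probes do not reach 0, while the brighter probes of Prom1 and Ednrb straddle it.

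The difference between 2 probes of a gene within an array does not depend on a factor that multiplies all spots of that array alike. Background and effects that vary with brightness do not cancel in it. The disagreement was tested on this difference, over 4780 pairs of probes of 3980 genes. The median change over all pairs was 0.19. The gap between the dimmer and the brighter Ednrb probe was -1.68, -2.16 and -2.30 in controls and -0.58, -0.83 and -0.29 with phenobarbital, a change of 1.48 ± 0.22 (limma, adjusted p = 0.00579). For Prom1 the gap was -6.36, -6.11 and -6.71 in controls and -5.19, -5.64 and -4.31 with phenobarbital, a change of 1.35 ± 0.36 (limma, adjusted p = 0.0400). The groups did not overlap for either gene. Such disagreement was common on these arrays: 24.8% of all pairs passed, 21.4% with the dimmer probe rising against the brighter and 3.41% with it falling. The groups did not overlap in 47.5% of pairs, 37.7% higher and 9.77% lower with phenobarbital. The sizes for Ednrb and Prom1 were larger than those of 94.5% and 92.6% of pairs. For Sox1 the gap was -5.09, -5.04 and -5.04 in controls and -5.44, -5.30 and -5.32 with phenobarbital, a change of -0.29 ± 0.09 that did not pass (limma, adjusted p = 0.0646), and it passed with the normexp background correction (-0.65, limma adjusted p = 0.0243). With the same correction the Prom1 pair did not pass (0.90, limma adjusted p = 0.0659). Without 1 array at a time, the Prom1 pair passed only without control replicate 2 (1.49, limma adjusted p = 0.0487) and without phenobarbital replicate 2 (1.65, limma adjusted p = 0.0287), and it passed in 9 of 18 other settings in all. The Ednrb pair passed in 17 of 18.

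**Figure D4:**
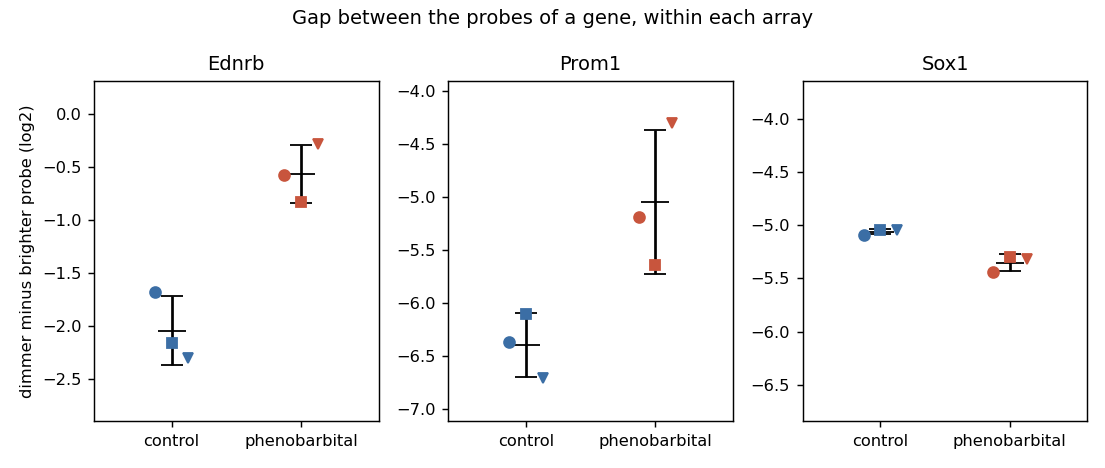
Log2 signal of the dimmer probe minus that of the brighter probe of Ednrb, Prom1 and Sox1 on each array, with the mean ± SD of 3 arrays; each panel spans the same number of log2 units. The gap narrowed on all phenobarbital arrays for Ednrb and Prom1 and widened slightly for Sox1.

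Both rises rest on signals of about 100 in controls, and the calls are close to the threshold. With the normexp background correction both passed with smaller log2 fold changes, 0.97 for Ednrb (limma, adjusted p = 0.0299) and 0.76 for Prom1 (limma, adjusted p = 0.0457). Without control replicate 1, the dimmer Ednrb probe had a log2 fold change of 1.64 and did not pass (limma, adjusted p = 0.0772), and neither did the dimmer Prom1 probe (1.24, limma adjusted p = 0.119). When each array was left out in turn, the Ednrb probe passed only without phenobarbital replicate 2 (1.87, limma adjusted p = 0.0220) and the Prom1 probe only without control replicate 2 (1.37, limma adjusted p = 0.0466). Within slide 1, the phenobarbital arrays lay 0.54 to 1.84 above control replicate 1 for the dimmer Ednrb probe and 0.67 to 1.80 above it for the dimmer Prom1 probe. With the slide as a block neither passed (1.26 and 1.18, limma adjusted p = 0.225 and 0.209). With the slide as a random block neither passed by a small margin (limma, adjusted p = 0.0533 and 0.0662), and Vim had an adjusted p of 0.0507 in that limma fit.

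How the members moved against each other was described by subtracting, on each array, the median over the 10 members. This cancels a factor that multiplies all spots of the array alike, but not effects that vary with brightness. Relative to the control mean, Sox1 then lay 0.46, 0.53 and 0.41 higher on the phenobarbital arrays, above all controls (-0.29 to 0.16). Vim lay 0.22, 0.43 and 0.35 lower, below all controls (-0.19 to 0.20) though phenobarbital replicate 1 only just. Sox9 lay 0.10, 0.16 and 0.10 lower, also below all controls (-0.08 to 0.07), but this lack of overlap carries no weight. Sox9 was itself among the middle genes that set the median on every array. Beside it stood Sox2 on all controls and phenobarbital replicate 3, and Sox1 on phenobarbital replicates 1 and 2. The reference thus contained Sox9, and the gene beside it changed between arrays. Without the subtraction the Sox9 groups overlapped. The other 7 members overlapped between groups on this measure. This measure is a description with no test.

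A wider list of 25 radial glia and neuroepithelial genes, all tested, gave 1 rise, 4 falls and 20 genes that did not pass, with a median log2 fold change of -0.02. These counts stand beside 6.24% rising and 11% falling among all names, and the all-name median of -0.17. Notch1, the receptor that keeps radial glia from differentiating, fell by 1.19 ± 0.16 on its brighter probe (limma, adjusted p = 0.00932), while its dimmer probe rose by 1.56 ± 0.18, another pair of probes that disagree. Ednra, the type A endothelin receptor gene, which is separate from Ednrb, fell by 0.97 ± 0.19 on its 1 probe (limma, adjusted p = 0.0237). Sox11, a SoxC factor of early neurons, fell by 0.47 ± 0.09, and the neural cadherin gene Cdh2 by 0.62 ± 0.14, each on its brighter probe. The dimmer probes of Sox11 and Cdh2 did not pass in the fit over all probes (-0.34 and -0.36, limma adjusted p = 0.166 and 0.0905). Emx2, a cortical patterning factor, rose by 0.77 ± 0.20 (limma, adjusted p = 0.0463). The 2 brightest members of the list that did not pass were Lhx2, a cortical selector gene, at 0.0053 ± 0.12 and Phgdh, an enzyme of serine synthesis, at -0.33 ± 0.13. With every probe tested, 3 of the list's 40 probes rose, those of Emx2 and the dimmer ones of Notch1 and Hopx, and 4 fell.

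Several members are also expressed outside radial glia, and markers of other cells moved between the groups. The marker lists were chosen with earlier results of these data known, so their counts are a description only. A gene could also pass the filter through 1 group alone. Vim is a filament gene of mesenchyme and endothelium as well. The counts below stand beside 6.24% rising and 11% falling among all names, and the sums weigh bright genes most. Of 10 mesenchyme and meninges genes 6 fell. Their summed level (in units of the array's 75th percentile) was 54.9 to 59.9 in controls and 31.0 to 37.3 with phenobarbital. Of 10 endothelial genes 4 fell, and the sum was 84.8 to 90.4 against 51.0 to 60.4. They did not all point one way: 7 had a log2 fold change below 0 and 3 above 0, Pecam1, Tek and Tie1. Pecam1 was higher with no overlap of the groups, at 0.70, but did not pass (limma, adjusted p = 0.0770). Ednrb also marks neural crest and melanoblasts, of whose 8 listed genes 6 were tested, 1 fell and none rose, with sums of 4.41 to 5.09 against 2.86 to 3.85; Foxd3 and Erbb3 did not pass the filter. Of 7 choroid plexus genes tested 5 rose, with sums of 2.05 to 4.22 in controls and 23.0, 11.8 and 18.3 in phenobarbital replicates 1 to 3, and Kl did not pass the filter. Phenobarbital replicate 2, lowest of its group in this sum, was also lowest of its group on the dimmer probes of Ednrb and Prom1, while the highest array differed. This order was not particular to choroid plexus. Replicate 2 was lowest of its group in the mesenchyme (37.3, 31.0 and 36.3), endothelium (60.4, 51.0 and 54.4) and astrocyte sums too. Replicate 1 or 3 was lowest in the other marker sums. Of 11 genes of intermediate progenitors and neurons 6 fell (sums of 286 to 315 against 181 to 212) and of 7 red blood cell genes 5 fell (936 to 1369 against 602 to 655). Microglia genes had 1 rise and 3 falls of 6 (7.70 to 9.94 against 8.21 to 10.6). Among 4 astrocyte and ependymal genes tested only Foxj1, a ciliogenesis factor, rose, by 1.21 ± 0.24. Aqp4, Gfap and Aldh1l1 had negative log2 fold changes (-0.30, -0.10 and -0.08) and did not pass. S100b did not pass the filter, and the sum was 0.58 to 0.98 against 1.08 to 1.17. The part of these cells in the values of Vim, Ednrb and Prom1 was not tested.

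**Figure D5:**
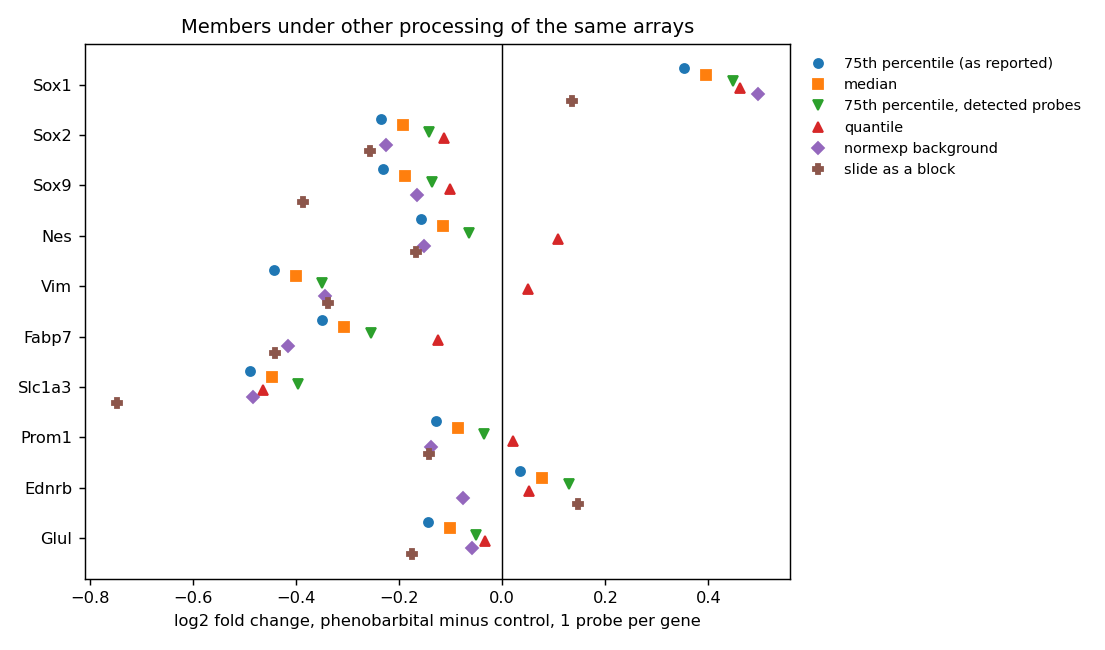
Log2 fold change (phenobarbital minus control, 1 probe per gene) of the 10 members under 6 ways of processing the same arrays, 1 symbol per way. Sox1 stayed above 0, and Sox2, Sox9, Fabp7, Slc1a3 and Glul below it, in all 6; Nes, Vim and Prom1 crossed 0 under quantile normalization and Ednrb under the normexp correction.

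Over the 20 other settings tried, Sox1 had log2 fold changes from 0.14 to 0.50 and passed in none. Sox2, Sox9, Fabp7 and Glul had negative values in all 20 and passed in none. Slc1a3 was negative in all 20 and passed in 2, without control replicate 2 and with array weights. Vim passed in 8 of the 20. The share of rises and falls among all calls moved with the scaling: 1580 names rose and 2790 fell as reported, 1592 and 1374 after quantile normalization, 1436 and 1068 after scaling to the median, and 1615 and 1114 with the percentile over detected probes. With the normexp correction, 1527 rose and 4950 fell. Quantile normalization also moved the median log2 fold change of all names from -0.17 to -0.065. The 6 arrays limit the precision of every value given here.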

How the data were processed

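Spots were read with Agilent Feature Extraction 10.7.3.1, per the file headers (10.7 in the submitters' processing notes); the headers name build mm9. Per the file headers, each processed spot value is a linear intensity from which background, with a spatial trend, had been taken off by the authors. The authors' value table holds log2 values: its array differences matched those of the log2 signals, after 1 factor per array, to within 1.78e-06 for 99% of probes with 1 spot; each probe's centring constant stays unknown. Its column medians were 0.08, 0.10 and 0.09 for controls and -0.02, -0.09 and -0.08 for phenobarbital.

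Here, log2 processed signals were reduced by each array's 75th percentile over 59305 non-control spots. Between 98 and 198 outlier spots per array were set to missing, and spots of a probe were averaged. Names came from RefSeq accessions (26582 of 55681 probes matched). A probe was tested if 1 or both groups had it well above background on all their arrays and each group had at least 2 values (34672 probes). The brightest probe stood for a gene (25303 names), and every probe was tested in a second fit. Both fits used limma 3.58.1 (R 4.3.3; lmFit, then eBayes), two-sided, with Benjamini-Hochberg adjustment over all features and a threshold of 0.05. An exact permutation test of 3 arrays against 3 cannot go below 0.1 and was not used for calls.

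The members, the gene lists and the rule for named genes were chosen with earlier results of these data known. Named were all members, up to 6 called genes of the wider list and its 2 brightest that did not pass; marker lists are given mostly as counts. The normexp correction used median spot signals, since spot means were not among the columns. In a simulation with 25275 genes, 100 were given a log2 change of 1 and another 100 a log2 change of 2. The fit found 49 and 86 of them, and made 7 false calls. On the real arrays 4370 names were called, and this number ran from 287 to 9502 over the other settings. The simulated rates therefore cannot be carried over to the real comparison.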

Additional observations from a re-analysis of the deposited data

How the results depend on the processing

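The fall of Vim and the rises of the dimmer Ednrb and Prom1 probes sit near the threshold, and 6 arrays allow little more. Leaving out 1 array at a time gave 892 to 4587 names changed, 1374 to 5880 probes, 0 to 2 members, 0 to 2 member probes and 1 to 2 member probe pairs. Names changed numbered 2504 with scaling to the median, 2729 with the percentile over detected probes, 1574 with no filter on dim probes, 9502 with array weights, 287 with the replicate block and 760 with the slide block, against 4370 as reported. Probes changed numbered 9200 with normexp, 3640 with scaling to the median, 3775 with the percentile over detected probes, 1929 with no filter, 12225 with array weights, 577 with the replicate block and 1094 with the slide block, against 5618. Members changed were 2 with array weights (Vim and Slc1a3), and 0 with quantile normalization, scaling to the median, the percentile over detected probes, no filter, the replicate block, and the slide as a fixed or random block. Called member probes were 2 with quantile normalization and with scaling to the median, 1 with the percentile over detected probes, and 0 with no filter, the replicate block and both slide blocks. Called member pairs were 1 with no filter, the replicate block and the random slide block, and 0 with the fixed slide block. The members' median log2 fold change was -0.0066 after quantile normalization and -0.10 with the percentile over detected probes. Signs turned for Nes (0.11), Vim (0.051) and Prom1 (0.021) after quantile normalization, and for Prom1 with the mean of its probes (0.54). They turned for Ednrb with normexp (-0.076) and array weights (-0.016), and between -0.12 and 0.26 when 1 array was left out. The dimmer Sox1 probe turned to -0.15 with normexp, -0.070 with array weights and -0.12 with the slide block, and ranged from -0.074 to 0.17 when 1 array was left out. Of these only Vim was called as reported, and the cause was not tested. Array weights were not run for the probe pairs. The labels do not say whether equal replicate numbers pair the arrays. Deviations from the group means correlated at 0.08, -0.16 and -0.35 between arrays of the same number, which cannot settle this. With the replicate block Vim did not pass (limma, adjusted p = 0.135). The dimmer Ednrb and Prom1 probes did not pass with the replicate block either (limma, adjusted p = 0.0826 and 0.142). The fall of Vim also lost its call in 5 of 6 fits without 1 array (limma, adjusted p = 0.0488 to 0.117). The Ednrb pair kept its call in each fit without 1 array (limma, adjusted p = 0.0123 to 0.0281), and the Prom1 pair lost it in 4 of 6 (limma, adjusted p = 0.0287 to 0.107). With normexp the called pairs were those of Ednrb and Sox1, not Prom1.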
